A study of Mus musculus with 5 samples.

Results

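The 33 genes described here encode the proteins that carry glucose into the cell, split it to pyruvate, exchange pyruvate with lactate and move pyruvate into mitochondrial metabolism. They were chosen by name from the 16347 genes of the count table, by pathway role and not by a threshold on a measured value. All 33 were in the table.

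Glycolysis turns glucose into pyruvate in the cytosol and yields ATP without oxygen. Hexokinase and phosphofructokinase commit glucose to the pathway, lactate dehydrogenase interconverts pyruvate and lactate, and the pyruvate dehydrogenase complex, held in check by the PDK kinases, passes pyruvate on to the citric acid cycle. In the brain, astrocytes are known for aldolase C and for lactate release, oligodendrocytes for the monocarboxylate transporter MCT1, and the glucose transporter GLUT1 for its place in barrier epithelia and endothelium.

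Single cells were sorted into 96-well plates and sequenced with Smart-seq2, a plate method that reads whole transcripts and has no molecular identifiers. Spinal cord (labelled as adult brain too), midbrain aqueduct, lateral ventricles and the third ventricle were taken from FoxJ1CreERT2 R26TdT mice 3 months old, 10 animals with females and males (the Foxj1 line). Midbrain also came from Nkx2-2Cre R26TrapC mice 3 months old, 7 animals, all female (the Nkx2-2 line). Each dissection is 1 sample, so differences between groups carry no test. No well can be tied to an animal, and Cre driver, reporter and sex composition differ between the midbrain samples. FoxJ1CreERT2 needs tamoxifen for activity and labels cells with Foxj1 promoter activity, and the treatment given was not analysed here. Nkx2-2Cre has no inducible step and labels all descendants of cells that once used that promoter.

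Cells of both midbrain samples were split by 3 marker genes. Ccdc153-high cells had at least 1000 CPM (reads of the gene per equal total of reads in the cell or group) of the ependymal gene Ccdc153, Sspo-high cells had at least 500 CPM of Sspo, which encodes SCO-spondin of the subcommissural organ, and Mog-high cells at least 500 CPM of the myelin gene Mog, in that order. The Foxj1 line midbrain gave 317 Ccdc153-high, 196 Sspo-high and 34 other cells of 547. The Nkx2-2 line gave 19 Ccdc153-high, 12 Sspo-high, 243 Mog-high and 53 other cells of 327. The lateral ventricle (240 cells), the third ventricle (245 cells) and spinal cord (114 cells) samples were used whole, and 239, 240 and 99 of their cells passed the Ccdc153 threshold.

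Summed reads ran from 14323509 in the 12 Sspo-high cells of the Nkx2-2 line to 352751349 in the Mog-high cells. The labels held against their markers with a few exceptions. Rax, a tanycyte gene, had 0 reads in the third ventricle sample. Spdef, a subcommissural organ gene, stood at 1786 CPM in Sspo-high cells of the Foxj1 line and at 1421 CPM in those of the Nkx2-2 line. The 19 Ccdc153-high cells of the Nkx2-2 line also carried 278 CPM of Mog, and their summed oligodendrocyte list reached 6373 CPM against 121 CPM in the same class of the Foxj1 line. In the 12 Sspo-high cells of the Nkx2-2 line that list stood at 4487 CPM, against 68.6 CPM in Sspo-high cells of the Foxj1 line. Fos, an immediate early gene, moved in opposite ways with the Sspo contrast, at 10943 CPM in Sspo-high and 2523 CPM in Ccdc153-high cells of the Foxj1 line but 510.8 CPM and 4469 CPM in the Nkx2-2 line. The part of these differences in the results below was not tested, except where values without Fos-rich cells are given.

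The upstream sequences of the 7 genes that were at least 2-fold apart between Sspo-high and Ccdc153-high cells in the same direction in both lines are shown first, as the 250 bases before the most upstream start that RefSeq lists (GRCm38.p6), 5′ to 3′ on the gene's strand. Capitals mark ACGTG and GCGTG, the core letters of hypoxia response elements, and CACGTG, an E-box that contains ACGTG, on either strand (CACGT and CACGC on the reverse). Slc2a1 lies at chr4:119108495-119108744 on the plus strand, Hk2 at chr6:82774455-82774704 on the minus strand, Pfkp at chr13:6648772-6649021 on the minus strand and Pkm at chr9:59656326-59656575 on the plus strand. Ldha lies at chr7:46845554-46845803 on the plus strand, Pdk3 at chrX:93832151-93832400 on the minus strand and Pcx at chr19:4510222-4510471 on the plus strand.
Slc2a1: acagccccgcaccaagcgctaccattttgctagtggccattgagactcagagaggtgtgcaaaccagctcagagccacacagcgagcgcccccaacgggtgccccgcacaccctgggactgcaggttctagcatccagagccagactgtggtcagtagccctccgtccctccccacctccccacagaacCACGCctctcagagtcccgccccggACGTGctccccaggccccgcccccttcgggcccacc
Hk2: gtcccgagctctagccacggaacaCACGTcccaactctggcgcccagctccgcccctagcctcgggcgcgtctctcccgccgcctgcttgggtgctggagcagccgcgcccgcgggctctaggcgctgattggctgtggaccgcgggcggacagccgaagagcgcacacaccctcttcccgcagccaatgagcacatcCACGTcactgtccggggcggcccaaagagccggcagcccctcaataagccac
Pfkp: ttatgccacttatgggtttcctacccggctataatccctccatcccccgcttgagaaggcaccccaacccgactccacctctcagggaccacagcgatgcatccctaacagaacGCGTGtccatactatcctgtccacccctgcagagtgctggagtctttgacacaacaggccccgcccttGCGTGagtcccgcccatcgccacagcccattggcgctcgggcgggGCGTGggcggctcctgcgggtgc
Pkm: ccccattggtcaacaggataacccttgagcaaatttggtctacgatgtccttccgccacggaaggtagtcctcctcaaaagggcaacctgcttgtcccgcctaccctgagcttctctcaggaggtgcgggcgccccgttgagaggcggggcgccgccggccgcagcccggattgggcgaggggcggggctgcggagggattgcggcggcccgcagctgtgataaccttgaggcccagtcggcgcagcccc
Ldha: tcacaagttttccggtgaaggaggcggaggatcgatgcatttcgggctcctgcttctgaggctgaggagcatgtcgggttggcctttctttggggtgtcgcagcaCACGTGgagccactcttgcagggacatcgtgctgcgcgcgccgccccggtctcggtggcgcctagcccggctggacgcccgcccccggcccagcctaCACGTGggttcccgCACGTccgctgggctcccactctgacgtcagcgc
Pdk3: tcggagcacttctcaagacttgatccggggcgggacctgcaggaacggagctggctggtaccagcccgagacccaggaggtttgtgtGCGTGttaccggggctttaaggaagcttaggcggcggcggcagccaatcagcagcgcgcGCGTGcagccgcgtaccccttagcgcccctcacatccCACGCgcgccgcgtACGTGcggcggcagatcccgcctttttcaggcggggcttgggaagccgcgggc
Pcx: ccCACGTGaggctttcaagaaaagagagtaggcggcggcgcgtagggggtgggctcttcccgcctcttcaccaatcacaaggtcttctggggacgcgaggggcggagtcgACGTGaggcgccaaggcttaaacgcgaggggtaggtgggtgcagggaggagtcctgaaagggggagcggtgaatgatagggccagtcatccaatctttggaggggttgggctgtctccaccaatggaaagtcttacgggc
Matches were counted on both strands, so each CACGTG, which reads the same on both, counts as 2 ACGTG matches. The 5 ACGTG matches of Ldha are thus 2 CACGTG and 1 CACGT, the 3 of Pcx are 1 CACGTG and 1 ACGTG, Hk2 held 2 CACGT, and Pkm held none at this start. Genes that were higher and genes that were lower in Sspo-high cells both held matches: Pfkp, the member with the largest deficit in the Foxj1 line, had 3 GCGTG matches. Over all starts of the 33 genes, 38 of 51 upstream windows (74.5%) held ACGTG or GCGTG, against 38.6% of the 32851 windows in the table. By gene the figures were 28 of 33 (84.8%) and 41.5%, and for CACGTG 7 of 33 (21.2%) and 6.86%. A match of letters is not a binding site. ACGTG and GCGTG both contain CG, and the windows were not matched for base composition, whose part in these shares was not tested.

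Rankings between genes are uncertain here, because reads of members that share sequence with other transcripts may have been dropped or divided, as given below. Per kilobase of exon, Slc2a1, which encodes GLUT1, was the highest member in the ependymal groups of the lateral ventricle, of the third ventricle and of both midbrain samples, with 979.9 CPM per kilobase in midbrain Ccdc153-high cells. Aldoa was ahead of it in the spinal cord, at 702.5 against 589.4 CPM per kilobase. In Sspo-high cells Pkm and Aldoa were close, at 597.3 and 590.4 CPM per kilobase in the Foxj1 line. In the Nkx2-2 line they were at 610.3 and 587.4. Their order depends on the gene length used. The longest transcript of Aldoa is far shorter than its joined exons, and that of Pkm only slightly shorter. With longest-transcript lengths Aldoa is ahead in both groups. Aldoa led in Mog-high cells, at 459.0 CPM per kilobase. Slc2a1 (chr4:119108711-119137983, plus strand) reached 2847 CPM in lateral ventricle cells, 3612 CPM in those of the third ventricle, 1922 CPM in spinal cord cells and 3194 CPM in midbrain Ccdc153-high cells. It was at 401.5 CPM in midbrain Sspo-high cells and 901.1 CPM in the other midbrain cells. In the Nkx2-2 line it was at 3086 CPM in Ccdc153-high, 887.6 CPM in Sspo-high, 335.6 CPM in Mog-high and 477.3 CPM in other cells. All 5 Ccdc153-rich groups were thus above every other group. Summed endothelial markers reached at most 41.2 CPM, in the other midbrain cells, and were at 10.3 CPM in midbrain Ccdc153-high cells. Only 3 of the 8 listed endothelial markers were in the count table, so these sums say little about endothelial reads.

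**Figure D1:**
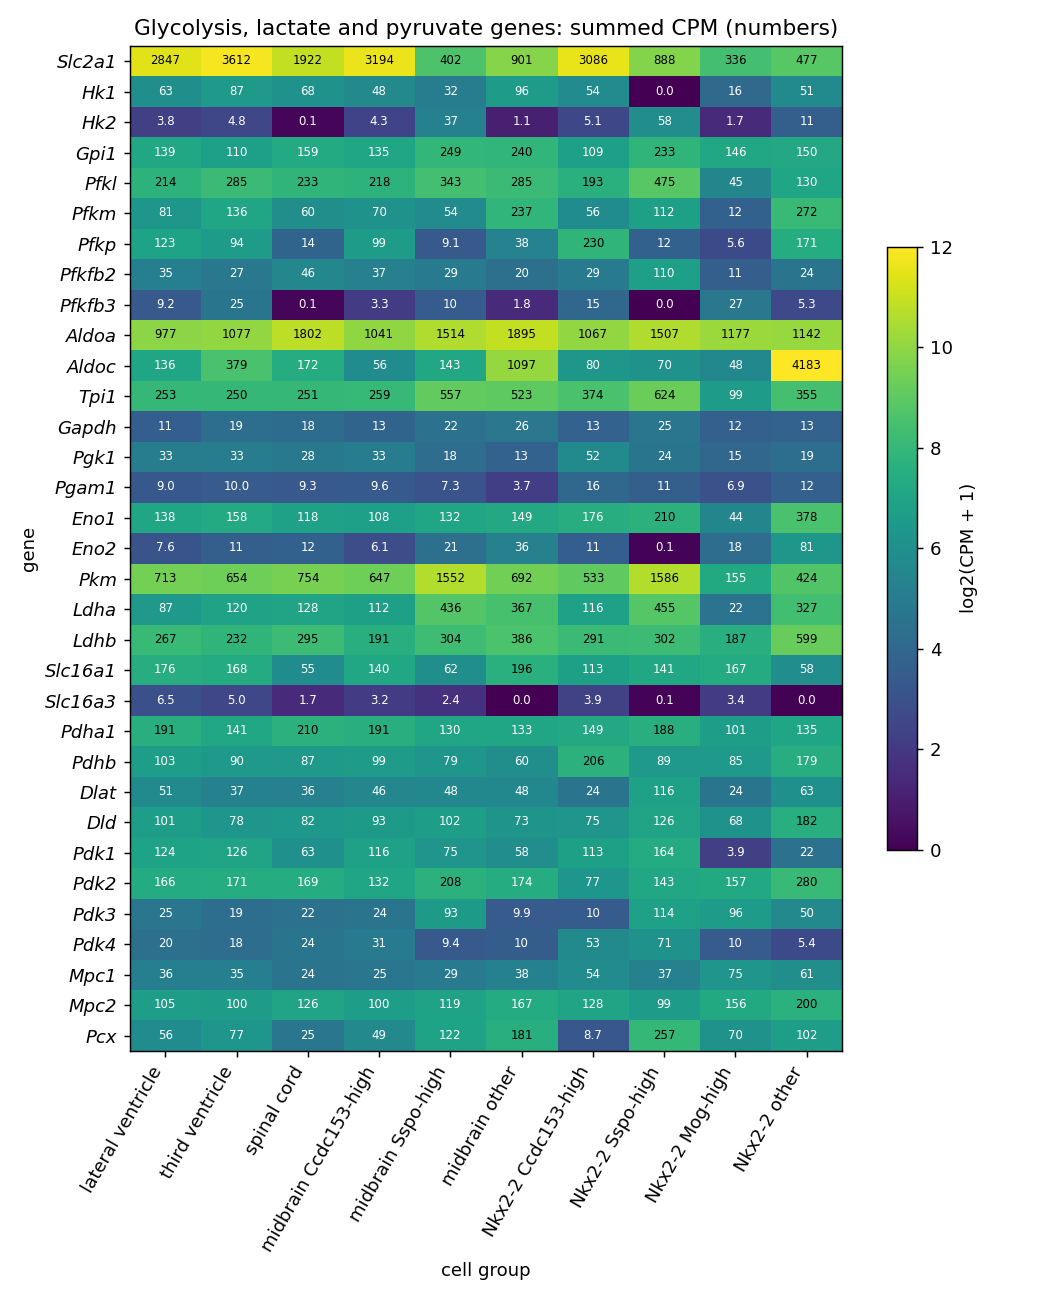
Heat map of the 33 genes (rows) in 10 cell groups (columns); colour is log2(CPM + 1) and the printed number the summed CPM, 1 sample a group. Slc2a1 is brightest in the ependymal columns, Aldoc in the other cells of the Nkx2-2 line at 4183 CPM, and Pfkl, Pkm, Ldha and Pdk1 are at their lowest in the Mog-high column.

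Gapdh, the usual reference gene of this pathway, had only 11.2 to 25.7 CPM in any group. Of the 50-base stretches of its exons, 82.5% also occurred in other annotated transcripts, and the share was 72.2% for Eno1, 68.0% for Pgk1, 41.5% for Pgam1, 34.4% for Pkm, 30.3% for Pdhb, 27.0% for Ldhb, 25.1% for Pfkfb2, 23.2% for Mpc1, 19.3% for Gpi1, 16.6% for Ldha, 13.5% for Aldoa and 7.51% for Tpi1. Levels of these genes are uncertain, because reads that fit several places may have been dropped or divided. Apart from the isozyme shares, the comparisons below set each gene against itself. Slc2a1, Hk1, Hk2, Pfkm, Pfkp, Aldoc, Slc16a1, Pdk1, Pdk2, Pdk3 and Pcx had no shared stretch.

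Among the 4 ependymal regions most members stayed within 2-fold, and Pfkp, Pfkm, Pfkfb3, Aldoc, Slc16a1 and Pcx did not. A gene counts as different when its highest region is at least 2-fold above its lowest and reaches 10 CPM. Of 30 genes that reached that level 6 did so, 20.0%, against 33.3% of all 10823 genes tested, a smaller share than among all genes. Its median gap was 0.60 on the log2 scale against 0.71 for all genes. Hk2, Pgam1 and Slc16a3 stayed under 10 CPM in every region.

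Aldoc, the aldolase of astrocytes, was highest in cells of the third ventricle at 379 CPM (319 to 418 CPM over blocks of 96 consecutive cell numbers, the measure of spread within a sample). It was at 172 CPM in spinal cord cells, 136 CPM in lateral ventricle cells and 56.2 CPM in midbrain Ccdc153-high cells. The third ventricle was 6.74-fold above the midbrain, a log2 ratio of 2.75 with a 95% counting interval of 2.73 to 2.78, and the blocks of these regions did not overlap. The summed astrocyte list was also highest in the third ventricle, at 2592 CPM against 1687 CPM in the midbrain cells, and its part in the difference was not tested. Aldoa, the general aldolase, stayed within 2-fold, from 977 CPM in the lateral ventricle to 1802 CPM in the spinal cord.

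Pfkp, the platelet type of phosphofructokinase, was low in the spinal cord. Its level there was 13.6 CPM, against 123 CPM for lateral ventricle, 93.7 CPM for the third ventricle and 98.9 CPM for midbrain cells. The lateral ventricle was 9.09-fold above the spinal cord, and the blocks of the spinal cord, 8.88 to 16.2 CPM, lay below every block of the other regions. Only 8.77% of spinal cord cells had a Pfkp read, against 56.2% of lateral ventricle cells. The sister isozyme Pfkm, the muscle type, was at 136 CPM in cells of the third ventricle and 59.97 CPM in spinal cord cells, a 2.26-fold gap. Without the first spinal cord block the Pfkm log2 ratio was 0.96, under the threshold. Beside its lower members the spinal cord sample had 9088 CPM of the summed ependymal list (14664 to 15622 CPM in the other regions), 252.7 CPM of the neuron list (5.57 to 53.2 CPM), 255 CPM of the oligodendrocyte list (104 to 121 CPM) and a median of 3979.5 genes per cell (4866 to 5435.5). The part of these differences was not tested.

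Pfkfb3, which makes the phosphofructokinase activator fructose-2,6-bisphosphate, was at 24.5 CPM in cells of the third ventricle, 9.19 CPM in lateral ventricle cells, 3.27 CPM in midbrain Ccdc153-high cells and 0.137 CPM in spinal cord cells. All spinal cord reads came from 1 cell. The gene was seen in 21.6% of cells of the third ventricle and in 2.52% of midbrain Ccdc153-high cells, a minority in both.

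Slc16a1, which encodes the lactate and pyruvate carrier MCT1, had 176 CPM in lateral ventricle cells, 168 CPM in cells of the third ventricle, 140 CPM in midbrain and 55.2 CPM in spinal cord cells, a gap of 3.19-fold. Pcx, the pyruvate carboxylase that refills the citric acid cycle, had 77.4 CPM in cells of the third ventricle, 56.1 CPM in lateral ventricle cells, 49.1 CPM in midbrain and 25.3 CPM in spinal cord cells. Its blocks overlapped, and the log2 ratio of 1.61 went to 0.98 without the first spinal cord block. The midbrain cells came from both sequencing projects, and Slc16a1 stood at 171 CPM in Ccdc153-high cells of the first and 65.9 CPM in those of the second.

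Against the mean of the other 3 regions, the spinal cord had 4 members at least 2-fold lower (Pfkp, Pfkfb3, Slc16a1 and Pcx), 13.3% of those tested against 12.4% of all genes, and 0 higher against 7.67%. The third ventricle had 2 higher (Pfkfb3 and Aldoc), against 4.07% of all genes, the midbrain had the same pair lower, against 4.92%, and 0 were higher there, against 1.84%. The lateral ventricle had 0 higher against 1.88% of all genes and 0 lower against 5.62%, and the third ventricle 0 lower against 4.61%. Tpi1, triosephosphate isomerase, ran only from 250 to 259 CPM, and Pkm, pyruvate kinase, from 647 to 754 CPM across the regions.

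Sspo-high cells of the Foxj1 line midbrain had a different profile from Ccdc153-high cells of the same sample. Transcripts of hexokinase 2, pyruvate kinase, lactate dehydrogenase A, PDK3 and pyruvate carboxylase were higher, while those of GLUT1 and the platelet phosphofructokinase were much lower. Of 31 genes tested, 9 were at least 2-fold higher (29.0%) against 18.3% of all 10796 genes, and 4 were at least 2-fold lower (12.9%) against 14.9%. The median log2 ratio was 0.29 for the set and 0.16 for all genes.

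At glucose entry, transporter transcripts differed in opposite directions. Slc2a1 was 7.96-fold lower in Sspo-high cells, a log2 ratio of -2.99, and its blocks, 242.6 to 580.9 CPM, lay far below the 2353 to 3699 CPM of Ccdc153-high cells. The neuronal-type transporter Slc2a3 was at 93.7 CPM in Sspo-high and 8.92 CPM in Ccdc153-high cells. Hk2 (chr6:82725025-82774454, minus strand), an inducible hexokinase that binds mitochondria, was at 37.4 CPM against 4.34 CPM, an 8.61-fold difference. Its blocks ran from 15.6 to 70.0 CPM in Sspo-high and from 2.17 to 7.82 CPM in Ccdc153-high cells. The narrower counting intervals were 36.4 to 38.3 and 4.09 to 4.61 CPM. Hk2 was read in 34.2% of Sspo-high and 7.57% of Ccdc153-high cells, and in 31.1% and 5.36% after each cell was thinned to 100000 reads. Hk1, the constitutive hexokinase, stood at 32.1 and 48.5 CPM, within 2-fold.

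At phosphofructokinase, Pfkp (chr13:6579768-6648777, minus strand) was at 9.12 CPM in Sspo-high and 98.9 CPM in Ccdc153-high cells, 10.8-fold lower, with blocks apart. Pfkl and Pfkm stayed within 2-fold, at 343 against 218 CPM and 53.8 against 69.7 CPM. Pfkfb3 was at 10.1 against 3.27 CPM, but its blocks overlapped, and in cells with Fos under 1000 CPM the log2 ratio of 1.63 turned to -5.57. It also lost its call with TMM scaling, which takes 0.13 off every log2 ratio of this comparison.

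In the triose steps of the pathway Tpi1 was at 557 against 259 CPM, 2.15-fold higher with blocks apart, although its log2 ratio of 1.10 was 0.97 with TMM scaling. Aldoc stood at 143 against 56.2 CPM and Eno2, the neuronal enolase, at 20.8 against 6.14 CPM with overlapping blocks. Pkm (chr9:59656368-59679375, plus strand) was at 1552 CPM (block range 1312 to 1803) against 647 CPM (566 to 732), 2.40-fold higher. Gapdh, Pgk1, Pgam1, Eno1 and Aldoa stayed within 2-fold.

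In the lactate and pyruvate branch, Ldha (chr7:46841475-46855627, plus strand), the subunit that favours lactate formation, was at 436 CPM (387 to 609 over blocks) in Sspo-high and 112 CPM (92.3 to 138) in Ccdc153-high cells, a 3.90-fold difference. It was read in 98.98% of Sspo-high and 69.1% of Ccdc153-high cells. Ldhb, the heart-type subunit, was at 304 and 191 CPM, within 2-fold. Within the first sequencing project Ldha stood at 420 against 107 CPM, and within the second at 471 against 123 CPM, so the difference was as large in each.

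Pdk3 (chrX:93764607-93832201, minus strand), a kinase that switches off pyruvate dehydrogenase, was at 93.1 CPM (56.7 to 129) against 23.9 CPM (10.49 to 32.3), 3.90-fold higher with blocks apart. The other kinases did not follow it: Pdk1 stood at 74.99 against 116 CPM, Pdk2 at 208 against 132 CPM and Pdk4 at 9.37 against 31.3 CPM. Pdk4 was past 2-fold lower, but it was 9.75 against 17.7 CPM within the second project, inside 2-fold, and its sign turned, to 0.21, in cells with Fos under 1000 CPM. The dehydrogenase subunits Pdha1, Pdhb, Dlat and Dld and the mitochondrial pyruvate carrier genes Mpc1 and Mpc2 all stayed within 2-fold. Pcx (chr19:4510472-4621752, plus strand) was at 122 against 49.1 CPM, 2.49-fold higher, with overlapping blocks. Slc16a1 was at 62.1 against 140 CPM in all cells, 61.7 against 171 CPM in the first project and 63.1 against 65.9 CPM in the second, so its lower level held in only 1 project.

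The Fos difference moved with this comparison, so it was repeated in the 15 Sspo-high and 204 Ccdc153-high cells with Fos under 1000 CPM, a choice made after seeing the data. Of the 9 higher genes 8 remained past 2-fold, all but Pfkfb3. Ldha was at 482 against 98.5 CPM there, Pkm at 1547 against 633 CPM, Hk2 at 40.2 against 1.85 CPM and Slc2a1 at 247 against 3464 CPM. Of the 4 lower genes Slc2a1 and Pfkp remained. Markers of choroid plexus were higher in Sspo-high cells too, at 1422 CPM in sum against 710.9 CPM, with Ttr at 795 CPM, and their part was not tested.

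**Figure D2:**
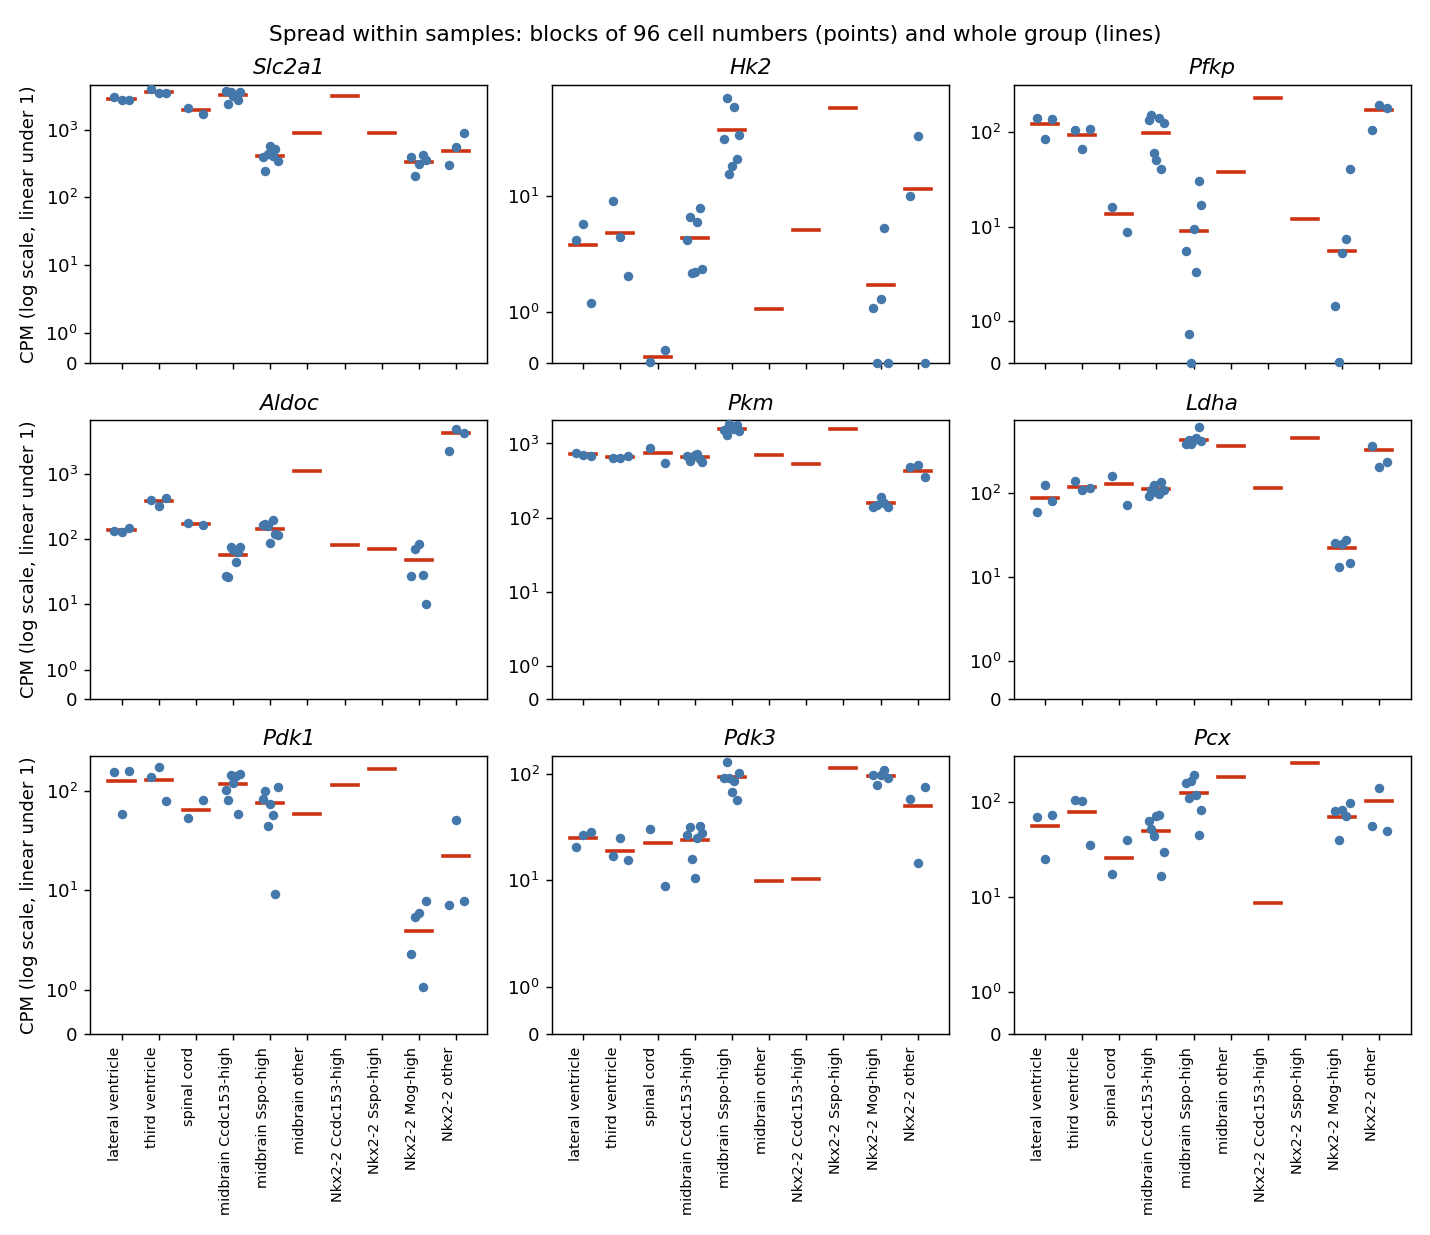
CPM of 9 genes in 10 cell groups on a log scale that is linear under 1; red lines are the whole group, blue points blocks of 96 cell numbers with at least 10 cells, and groups without points have no such block. Points of midbrain Sspo-high and Ccdc153-high cells do not overlap for Slc2a1, Hk2, Pfkp, Aldoc, Pkm, Ldha and Pdk3, and they overlap for Pdk1 and Pcx.

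Outside the 33 genes, other lists of the same metabolism gave context. Of 18 other glycolysis genes tested, 7 were at least 2-fold higher in Sspo-high cells and 1 lower (18.3% and 14.9% of all genes), led by Slc2a3, by Emb, a partner protein of monocarboxylate transporters, at 515 against 154 CPM, and by Gpd2 of the glycerol phosphate shuttle at 38.2 against 12.5 CPM. Among glycogen genes Pygm, the muscle glycogen phosphorylase, stood at 358 against 13.6 CPM and Pygl, the liver phosphorylase, at 15.02 against 42.7 CPM. Of 16 citric acid cycle genes only Suclg2 (94.96 against 36.9 CPM) was higher and Idh3a (143 against 479 CPM) lower. Of 10 hypoxia response genes outside glycolysis 0 were higher and 2 lower, the latter near the 14.9% of all genes, among them Car9, a carbonic anhydrase, at 0.0917 against 249.5 CPM.

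The Nkx2-2 line offered the same contrast in another sample, but with 12 Sspo-high and 19 Ccdc153-high cells. Of 32 genes tested, 10 were at least 2-fold higher (31.2%) against 32.3% of all genes, and 7 were lower (21.9%) against 25.7%, so the count itself was that of the background. Higher in both lines were Hk2, Pkm, Ldha, Pdk3 and Pcx, 5 of the 9 genes higher in the Foxj1 line (55.6%) and 5 of the 10 higher in the Nkx2-2 line (50%). Lower in both were Slc2a1 and Pfkp, 2 of 4 (50%) and 2 of 7 (28.6%). The overlap between lines was not counted over all genes, so these shares have no background beside them. In the Nkx2-2 line alone 32.3% of all genes were called higher and 25.7% lower.

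Ldha and Pkm had nearly the same values in both lines. Ldha was at 455 CPM in Sspo-high and 116 CPM in Ccdc153-high cells of the Nkx2-2 line, a 3.91-fold difference, and was read in all 12 Sspo-high cells. Pkm was at 1586 against 533 CPM. With all 3 class thresholds halved Pkm was no longer past 2-fold in this line. Hk2, Ldha, Pdk3, Pcx, Slc2a1 and Pfkp kept their calls in both lines under every alternative counted here. The Fos restriction in the Nkx2-2 line is not counted, because it left only 2 Ccdc153-high cells, without Pfkp reads. It was left out after its values were seen. With it 2 of the called members reversed, and those lower went from 7 to 2.

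Single cells weighed heavily on the smaller members. Hk2 was at 57.7 against 5.07 CPM with 59.6% of the Sspo-high reads from 1 cell, and Pdk3 at 114 against 10.4 CPM with 89.6% of the Ccdc153-high reads from 1 cell. Pcx was at 257 against 8.66 CPM, and all its Ccdc153-high reads came from 1 cell, so its 29.7-fold gap is poorly fixed. Pfkp stood at 12.1 against 230 CPM, with 99.4% of the Sspo-high reads from 1 cell. Slc2a1 was at 888 against 3086 CPM, and 38.1% of its Sspo-high reads came from 1 cell.

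Higher in the Nkx2-2 line beyond 2-fold were also Gpi1, Pfkl, Pfkfb2, Gapdh and Dlat, and lower were Hk1, Pfkfb3, Pgk1, Eno2 and Pdhb. Gapdh and Gpi1 lost their calls with TMM scaling, which takes 0.19 off each log2 ratio. With 1 block omitted the log2 ratio was as low as 0.59 for Gapdh, 0.81 for Gpi1 and 0.36 for Pfkfb2, and as close to 0 as -0.93 for Pgk1 and -0.98 for Pdhb, all inside 2-fold. Hk1 and Pfkfb3 had 0 reads in the 12 Sspo-high cells. Set against 3 reads over the group, Hk1 was at least 259-fold lower than its 54.3 CPM in Ccdc153-high cells. That bound covers counting error only and not the sampling of 12 cells. In the Foxj1 line Hk1 stayed within 2-fold. Aldoc and Tpi1, past 2-fold in the Foxj1 line, were at 70.0 against 80.0 CPM and 624 against 374 CPM here. Of the context lists, Slc2a3 (86.5 against 0.0492 CPM), Pygm (213 CPM against 0 reads) and Suclg2 (68.4 against 26.5 CPM) were again higher and Idh3a (128 against 551 CPM) again lower.

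**Figure D3:**
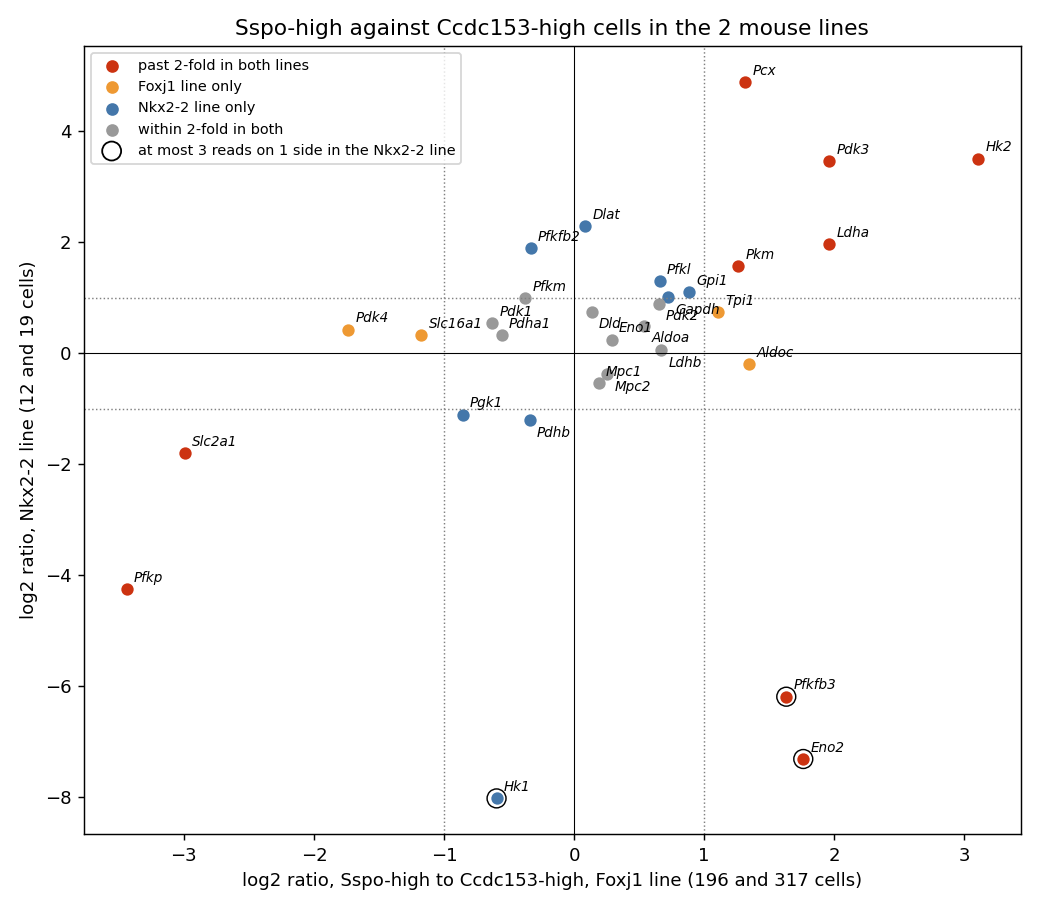
Log2 ratio of Sspo-high to Ccdc153-high cells for members tested in both lines, Foxj1 line on the x axis and Nkx2-2 line on the y axis; dotted lines mark 2-fold, colours show in which line a gene is past it, and rings mark genes with at most 3 reads in a group of the Nkx2-2 line. Hk2, Pkm, Ldha, Pdk3 and Pcx lie upper right, Slc2a1 and Pfkp lower left, and Pfkfb3 and Eno2 go opposite ways.

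Mog-high cells of the Nkx2-2 line, with 113579 CPM of the summed oligodendrocyte list, had less of many glycolytic transcripts than Ccdc153-high cells of the same sample. Of 31 genes tested, 15 were at least 2-fold lower (48.4%) against 39.6% of all genes, and 3 were higher (9.68%) against 25.0%. The choice of scaling bears on the counts: TMM adds 0.66 to every log2 ratio here. With it 12 of the 15 remained lower (28.6% of all genes) and 8 were higher (36.8% of all genes), and the median of the set moved from -0.74 to -0.08 while that of all genes moved from -0.46 to 0.20.

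From the top of the pathway, Slc2a1 was at 336 against 3086 CPM, 9.19-fold lower, Hk1 at 16.5 against 54.3 CPM and Pfkl, the liver phosphofructokinase, at 44.8 against 193 CPM. Pfkm was at 12.3 against 55.9 CPM, and Pfkp at 5.55 against 230 CPM, 41.5-fold lower, so all 3 phosphofructokinase genes were low. Tpi1 stood at 98.7 against 374 CPM, Eno1 at 44.0 against 176 CPM, Pkm at 155 against 533 CPM and Ldha at 22.5 against 116 CPM. Each of these stayed past 2-fold lower with TMM scaling, and separately against the 317 Ccdc153-high cells of the Foxj1 line as the reference. With both changes at once, where TMM adds 0.67 to each log2 ratio, Hk1, Tpi1 and Eno1 came inside 2-fold.

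Aldoa was not part of this pattern, at 1177 against 1067 CPM, nor was Ldhb, at 187 against 291 CPM. Slc16a1, the MCT1 gene known from oligodendrocytes, was at 167 CPM in Mog-high and 113 CPM in Ccdc153-high cells and was read in 88.9% of Mog-high cells. Its log2 ratio of 0.56 was 1.22 with TMM scaling. Mpc1 was at 75.03 against 53.6 CPM and Mpc2 at 156 against 128 CPM, both within 2-fold, and Mpc1 passed 2-fold with TMM scaling.

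The PDK kinases did not move together. Pdk1 was at 3.86 against 113 CPM, 29.3-fold lower, and Pdk4 at 10.1 against 52.6 CPM. Pdk3 was at 95.5 CPM, 78.6 to 109 CPM over 5 blocks, against 10.4 CPM, and Pdk2 at 157 against 77.4 CPM, 2.03-fold higher. Against Ccdc153-high cells of the Foxj1 line, Pdk3 was 4-fold higher (23.9 CPM there) and Pdk1 30.1-fold lower (116 CPM), while Pdk2 was inside 2-fold. Pcx, at 69.7 against 8.66 CPM, also lost its call with that reference, which had 49.1 CPM.

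The reference of 19 cells limits this comparison. They carried oligodendrocyte transcripts, and 17 of them had Fos at 1000 CPM or more, against 59 of the 243 Mog-high cells. In the 2 Ccdc153-high cells with Fos under 1000 CPM several members had no reads, among them Hk2, Pfkp and Aldoc, and 8 of the genes called here reversed. After these values were seen, this restriction was left out of the alternatives for the Nkx2-2 line. Against the Foxj1 line reference, whose cells are 113 of 317 over that Fos level, 13 members remained lower (39.3% of all genes were) and 4 were higher (Pfkfb3, Eno2, Pdk3 and Mpc1, with 17.5% of all genes).

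Of 7 pentose phosphate pathway genes 4 were at least 2-fold higher in Mog-high cells and 1 lower, against 25.0% and 39.6% of all genes, among them G6pdx, which feeds the pathway, at 95.4 against 3.15 CPM, Taldo1, transaldolase, at 1091 against 172 CPM and Pgd at 47.1 against 11.8 CPM. Against Ccdc153-high cells of the Foxj1 line 2 of 6 were higher and 1 lower, with G6pdx at 8.29 CPM, Taldo1 at 119 CPM and Pgd, then inside 2-fold, at 61.8 CPM in that reference. Gpd1, the glycerol phosphate dehydrogenase long used as an oligodendrocyte marker, was at 292 against 0.246 CPM. Of 16 citric acid cycle genes 0 were higher and 4 lower, both smaller shares than among all genes (25.0% and 39.6%), with Suclg2 at 0.490 against 26.5 CPM. Of 9 glycogen genes 1 was higher and 4 were lower, with Pygl at 0.0113 against 78.3 CPM.

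Ccdc153-high cells of the Nkx2-2 and Foxj1 lines show how far 1 class can differ between samples. Of 31 genes 4 were at least 2-fold higher in the Nkx2-2 line (Pfkp, Pfkfb3, Pdhb and Mpc1), 12.9% against 12.7% of all genes, and 2 lower (Pdk3 and Pcx), 6.45% against 21.9%. Slc2a1 (3086 and 3194 CPM), Ldha (116 and 112 CPM) and Pdk1 (113 and 116 CPM) were nearly equal. With 1 block of the Nkx2-2 line cells omitted the calls of 5 of these 6 genes ended: the log2 ratio was 0.97 for Pfkp and 0.82 for Pdhb without the first block, -0.83 for Pdk3 without the second, and 0.91 for Mpc1 and -0.18 for Pfkfb3 without the third. Within the second sequencing project alone, Pfkp stood at 230 and 85.6 CPM, Mpc1 at 53.6 and 24.6 CPM and Pdhb, inside 2-fold there, at 206 and 112 CPM. Line, reporter and sex cannot be told apart here.

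Compared per kilobase of exon, which allows for gene length only, the composition of several steps changed with the class. Shared 50-base stretches differ within families, so the level of each share is uncertain. They made up 16.6% for Ldha against 27.0% for Ldhb and 72.2% for Eno1 against 0.04% for Eno2. For Aldoa they made up 13.5%, and Aldoc had none. Ldha made up 49.7% of lactate dehydrogenase reads per kilobase in midbrain Sspo-high cells (42.8% to 60.5% over blocks) and 50.9% in those of the Nkx2-2 line. It was 28.7% in midbrain Ccdc153-high cells (23.0% to 32.8%), 18.3% to 26.2% in the other ependymal regions and 7.63% in Mog-high cells (4.71% to 12.6%). Ldhb supplied the rest.

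Hk2 supplied 50.2% of the Hk1 and Hk2 reads per kilobase in midbrain Sspo-high cells, although its blocks spread from 20.5% to 76.1%, and 100% in those of the Nkx2-2 line, against 7.18% in midbrain Ccdc153-high cells. Pfkp supplied 22.01% of the phosphofructokinase reads per kilobase in midbrain Ccdc153-high cells, 25.4% in the lateral ventricle, 43.3% in Ccdc153-high cells of the Nkx2-2 line, 3.68% in the spinal cord and 1.89% in midbrain Sspo-high cells. In Sspo-high cells Pfkl made up most of the remainder.

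Among the PDK kinases, Pdk2 was the largest part per kilobase in every group. Pdk3 made up 38.0% in Mog-high cells (35.5% to 41.0%) and 28.6% in midbrain Sspo-high cells, against 11.1% in midbrain Ccdc153-high cells. Pdk1 made up 0.63% in Mog-high cells and 22.0% in midbrain Ccdc153-high cells. Slc16a3, the MCT4 gene, never exceeded 3.68% beside Slc16a1.

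**Figure D4:**
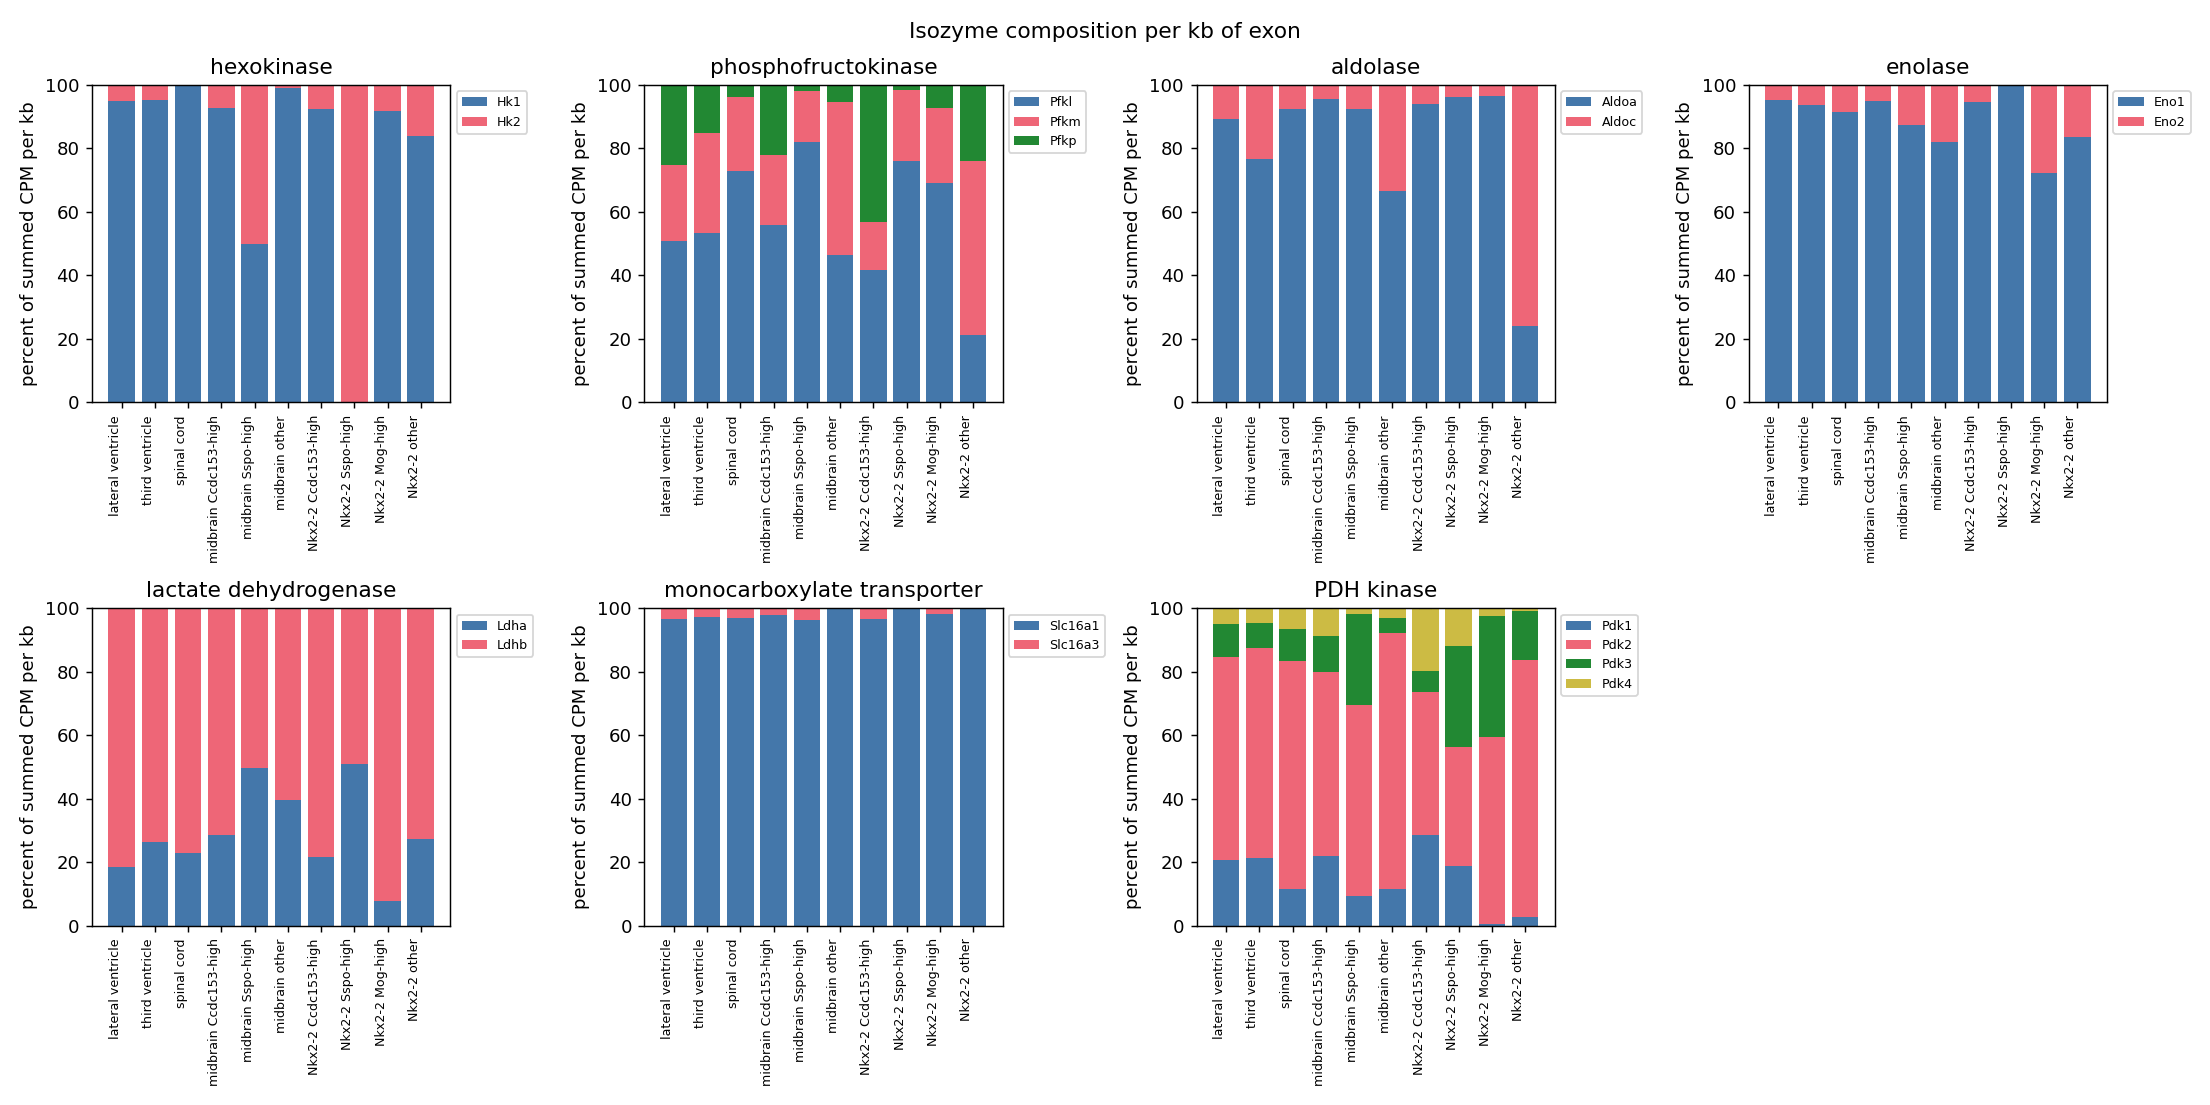
Stacked bars of the share of each isozyme in the summed CPM per kilobase of exon of its family, in 10 cell groups, for 7 families. Ldha is close to 50% in both Sspo-high groups and 7.63% in Mog-high cells, Aldoc reaches 75.9% in the other cells of the Nkx2-2 line, and Pdk3 is widest in Mog-high and Sspo-high cells.

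The cells past none of the 3 markers held the highest Aldoc of the series. Aldoc was at 4183 CPM in the 53 other cells of the Nkx2-2 line (2206 to 4798 CPM over blocks), 87.3-fold above Mog-high cells, and at 1097 CPM in the 34 other midbrain cells of the Foxj1 line, 19.5-fold above Ccdc153-high cells. The summed astrocyte list was 7809 and 8763 CPM in these groups, and that of oligodendrocyte precursors 3830 and 905.7 CPM. Other lists were higher than that of precursors. In the Nkx2-2 line the oligodendrocyte list stood at 4962 CPM. In the Foxj1 line the ependymal list stood at 2063 CPM, the mural list at 1435 CPM and the oligodendrocyte list at 1229 CPM. Both groups are thus mixed. In the Nkx2-2 line 17 of 32 members were at least 2-fold higher in the other than in the Mog-high cells (41.7% of all genes) and 2 lower (11.5%). Ldha was at 327 against 22.5 CPM, Pfkm at 272 against 12.3 CPM, and Slc16a1 lower at 57.8 against 167 CPM. In the Foxj1 line 7 of 29 members were higher in the other than in the Ccdc153-high cells (22% of all genes) and 6 lower (24.1%), with Ldha at 367 against 112 CPM and Slc2a1 at 901 against 3194 CPM.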

How the data were processed

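Single sorted cells were sequenced with Smart-seq2, 1 library per cell. The deposited raw table held whole-number counts of reads per gene and cell, and a second deposited table held log2 values, each the log2 of the count over 1 size factor per cell plus 1, used only as an alternative. STAR 2.3.1o, Seurat 3 and mm10 are named per the submitters' processing notes; the counting tool, annotation and size-factor method are not given in the sources used here. The column prefix Forebrain was matched to the sample from lateral ventricle and the prefix Tanycytes to that from the third ventricle, although the labels use neither word, and midbrain cell numbers up to 480 were taken as the first sequencing project, which the labels support only through their number ranges.

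Counts were summed per cell class and sample and expressed as CPM with exact 95% Poisson intervals, shares of cells with Clopper-Pearson intervals. Intervals and floors (3 reads over a group) cover counting error only, because PCR copies of a molecule cannot be recognised here. With 1 sample a group no test was run. A gene counted as higher or lower at 2-fold or more where the higher side reached 10 CPM. Spread within a sample was described over blocks of 96 cell numbers with at least 10 cells. All cells were kept (at least 108417 reads each) and no doublet caller was run; 16 Ccdc153-high cells of the Foxj1 line and 1 cell each of the Ccdc153-high and Sspo-high classes of the Nkx2-2 line passed more than 1 class threshold. Exon lengths and shared 50-base stretches came from GENCODE vM21 on GRCm38. Python 3.11.15, R 4.3.3, edgeR 4.0.16 (TMM factors) and DESeq2 1.42.0 (median-of-ratios factors) were used, and the scripts were tested on simulated data. Values were given for members past 2-fold in a comparison, the isozyme sets, Gapdh and Pkm, and the rest by range. The members and lists were chosen with earlier results of these data known. The Fos restriction, the Ccdc153 restriction of all regions and the longest-transcript lengths were added after the data were seen. Some genes of the context and marker lists are not reported here.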

Additional observations from a re-analysis of the deposited data

Results flagged for a closer look

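Pfkfb3 went opposite ways between the lines in the comparison of Sspo-high with Ccdc153-high cells. Its log2 ratio was 1.63 in the Foxj1 line and -6.19 in the Nkx2-2 line. The latter was set against 3 reads over the group because the 12 Sspo-high cells had 0 reads. By counting error alone Pfkfb3 was thus at least 72.8-fold lower, a bound that does not cover the sampling of 12 cells. In the Nkx2-2 line 83.9% of the Ccdc153-high reads came from 1 cell. Eno2 had log2 ratios of 1.76 and -7.31, with 1 read in Sspo-high cells of the Nkx2-2 line (95% interval of the ratio -12.62 to -4.82) and 97.3% of the Ccdc153-high reads from 1 cell. Neither difference between the lines was tested.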

How the results depend on the processing

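Of 91 alternatives to the counts of members past 2-fold, 83 stayed within 1.5 times the reported count. This compares the numbers and not which genes were counted. Of 1568 alternatives to values of single genes, 622 stayed the same, 944 moved and 2 reversed. For log2 ratios, moved means outside the counting interval of the main value. Members higher in Mog-high than in Ccdc153-high cells were 8 with TMM (36.8% of all genes) and 5 with median-of-ratios scaling (31.5%). A 1.5-fold threshold gave 15 members between regions (61.0% of all genes), 14 higher and 7 lower in Sspo-high cells of the Foxj1 line (31.1% and 22.2%), 5 higher in Mog-high cells (30.8%) and 14 between the Ccdc153-high cells of the lines (22.3% of all genes higher and 31.4% lower), the wider threshold itself being the cause. Fos under 1000 CPM gave 7 lower in Sspo-high cells of the Foxj1 line and reversed Pfkfb3 (-5.57) and Pdk4 (0.21); the cause was not tested. With any 1 block omitted there were 6 to 9 members between regions, 8 to 9 higher and 4 lower in Sspo-high cells of the Foxj1 line, 8 to 12 higher and 6 to 7 lower in the Nkx2-2 line, 2 to 4 higher and 14 to 16 lower in Mog-high cells, and 4 to 10 between the lines, the 10 without the first block of the Nkx2-2 line. With Fos under 1000 CPM the Nkx2-2 line kept 2 Ccdc153-high cells, and the counts were 13 higher and 5 lower for Mog-high and 17 higher and 2 lower for Sspo-high cells. Shares of all genes were not computed for the Fos restriction or the block omissions, so these counts cannot be set against the background. With the longest transcript as gene length the Aldoc share in the other cells of the Nkx2-2 line was 67.1%. No paired analysis was possible because each group is 1 sample. Intervals of counting are narrow except for genes read in 1 cell, and variation between animals is not measured.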

Other observations

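The cells past none of the 3 markers were split by Gjb6, an astrocyte connexin, and then by Pdgfra, a precursor marker, each at 100 CPM, a split chosen after the values were seen. In the Nkx2-2 line Aldoc was at 12350 CPM in the 21 Gjb6 cells, with reads in 21 of 21, and at 347 CPM in the 28 Pdgfra cells. Slc2a1 stood at 1176 and 125 CPM and Ldhb at 1193.2 CPM in the Gjb6 cells, while Ldha was at 378 and 310 CPM. Pdk3 had 0 reads in the Gjb6 cells and 75.1 CPM in the Pdgfra cells. In the Foxj1 line Aldoc was at 1550 CPM in the 22 Gjb6 cells and 162.5 CPM in the remaining 12.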
